A study of Homo sapiens with 22 samples.

Results

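The ID, HES/HEY and inhibitory SMAD genes are a group of 9 human genes, ID1, ID2, ID3, ID4, HES1, HES4, HEY1, SMAD6 and SMAD7, followed here by BRIC-Seq, a pulse-chase method in which RNA labelled with bromouridine (BrU) is recovered with an anti-BrdU antibody as the label is chased away. Each gene is represented by the protein-coding transcript with the highest mean count, so these are 9 of the 19570 protein-coding genes with a row in the files. Of the 9, 8 passed the filter of a mean of at least 1 CPM (counts scaled per library by its total), among 10725 protein-coding genes that did, and ID1 did not. All libraries came from HEK293T cells, a human embryonic kidney line, that had been labelled with 150 µM BrU for 24 h and that expressed a short hairpin RNA, which was a control sequence in one line (shControl) and targeted ZNF598 in the other (shZNF598). ZNF598 ubiquitinates ribosomal proteins when ribosomes collide. There were 2 libraries per shRNA at 0, 2, 4, 6 and 10 h of chase in medium without BrU, and 1 per shRNA at 24 h. Nothing in the labels says that the 2 libraries of a group came from separate cultures, so p-values measure the spread between these libraries.

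The ID proteins carry a helix-loop-helix without the basic region that contacts DNA, and they hold E proteins and other partners away from their sites. Their genes are classical targets of BMP signalling through SMAD proteins, and SMAD6 and SMAD7 are induced by the same pathway and block its receptors, which makes them negative feedback regulators. HES and HEY proteins are basic helix-loop-helix repressors, and HES proteins recruit Groucho corepressors. HES1 and HEY1 are best known as targets of Notch, with HES1 repressing its own gene. Such feedback genes are known for mRNAs and proteins that turn over quickly.

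The files give whole-number read counts per transcript, and totals ran from 52352359 to 96963584 in the 20 libraries of 0 to 10 h. The target itself was lower in every shZNF598 library, with 6.89 and 8.37 CPM at 0 h in shControl and 0.756 and 1.05 CPM in shZNF598. On the log2 scale this target differed by -3.05 on average over 0 to 10 h (SE 0.09, edgeR's quasi-likelihood test with Benjamini-Hochberg adjustment, adjusted p = 1.17e-18). The shControl 0 h libraries were the least alike, with a Pearson r of 0.9745 across transcripts against 0.9866 to 0.9947 in the other groups, so values without each of them are given where they matter. Of the markers listed for this line, VIM (134 CPM on average), KRT8, KRT18, NEFL and NEFM were present and PAX2 had at most 6 counts in a library, while PTPRC, ALB, HBB, PECAM1 and CDH5 had at most 7 and COL1A1 had 1.03 CPM on average.

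On GRCh38, transcripts of 8 members lie at chr20:31605289-31606510 (ID1), chr2:8678845-8684453 (ID2), chr6:19837370-19842197 (ID4), chr3:194136148-194138732 (HES1) and chr15:66702236-66782849 (SMAD6) on the plus strand, and at chr1:23557926-23559501 (ID3), chr1:998964-1000097 (HES4) and chr18:48919853-48950965 (SMAD7) on the minus strand. The members are compact transcripts, with a median length of 2041 nt against 3575 nt over the 10725 protein-coding genes tested, a median 3′ UTR of 776 nt against 1442 nt, and a median of 4 exons against 9. Their 3′ UTRs were searched on the transcript strand for ATTTA, the core of AU-rich elements, for its longer form TTATTTATT, and for TGTANATA, the letters that Pumilio proteins bind. ATTTA was found in all members but HES1, at counts of 1 (ID1, ID3 and HES4), 3 (ID2 and SMAD7), 6 (ID4 and SMAD6) and 7 (HEY1), and in 74.5% of all genes tested. TTATTTATT was in none of the 9 and in 9.8% of all genes. TGTANATA was found in HES1, ID2 and SMAD7 at 1 copy each and in ID4 at 4 copies, and in 31.5% of all genes. Among genes with a 3′ UTR within 20% of the length of HES1's (499 nt), 53.4% held ATTTA and 11.7% held TGTANATA. Taken in this way for each member, the shares for ATTTA ran from 11.5% (HES4) to 97.2% (ID4). Those for TTATTTATT ran from 0.5% (HES4) to 13.3% (ID4), and those for TGTANATA from 5.2% (HES4) to 46.0% (ID4). All motif hits are matches of letters and not known sites.

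The following 30-base windows (GENCODE 44 transcripts, GRCh38, written 5′ to 3′ on the transcript strand, match in capitals) show HES1, which fell furthest in the chase and lacks ATTTA, 3 other members that fell quickly, and HES4, whose change did not pass the test and whose 3′ UTR of 95 nt holds an ATTTA near its end. The ID2 window with TGTATATA also holds the letters ATTTA, which overlap the last base of the match.
HES1, chr3:194138414-194138443, plus strand: tgcactatattTGTATATAttttatatgtt
ID2, chr2:8684108-8684137, plus strand: actgaatgctgTGTATATAtttatatataa
SMAD7, chr18:48920068-48920097, minus strand: atattattactTGTAAATAtaaagacgttt
ID3, chr1:23558049-23558078, minus strand: ttctgttgccctgATTTAtgaactctataa
HES4, chr1:998964-998993, minus strand: tgtagcagagaaaacgtATTTAttattcca

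The first question was how quickly the labelled mRNAs left the pool. Levels are CPM after TMM scaling, which holds the bulk of each library constant, so each change is relative to the bulk, and a rise can mean slower loss than the bulk. In bulk samples a change in the share of cells that express a gene and a change in RNA per cell cannot be told apart. At the end of labelling, levels per kilobase of transcript in shControl ran from HEY1 (23.8 ± 1.89 CPM per kb, SD, n = 2) through ID3 (12.4 ± 3.01), ID2 (12.2 ± 1.6), HES1 (5.7 ± 0.629), ID4 (4.73 ± 0.39), HES4 (3.02 ± 0.0282), ID1 (1.71 ± 0.276) and SMAD7 (1.52 ± 0.082) to SMAD6 (1.19 ± 0.0612). In this order the ranges of mean ± SD overlapped between ID3 and ID2, between HES1 and ID4, and between ID1 and SMAD7. The order used the transcript lengths in the files, and isoforms of a gene share reads in these counts.

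Within the first 2 h, 7 of the 8 members tested fell in shControl and the same 7 fell in shZNF598, all but HES4 (edgeR quasi-likelihood test, adjusted p below 0.05). Over all 79513 transcripts tested, 3.61% were called lower in shControl and 3.83% in shZNF598, and over the 10725 protein-coding genes with 1 row each these shares were 7.56% and 7.82%. The median log2 change of the 8 was -1.27 in shControl and -1.44 in shZNF598, beside -0.06 and -0.05 over the 10725 protein-coding genes. A scaling by total counts alone gave the same calls, with a shift of all genes between 0 and 2 h of 0 in shControl and 0.02 log2 in shZNF598. Without replicate 2 of shControl at 0 h, the shControl changes were -1.16 for ID3, -1.43 for ID2, -0.97 for ID4 and -1.01 for HEY1. The shControl call for SMAD6 was lost in that fit. Without replicate 1, the changes were -1.65 for ID3, -1.14 for ID4 and -1.17 for HEY1.

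HES1, the Notch-responsive repressor, fell furthest. Its levels in shControl were 8.27 and 9.67 CPM at 0 h and 1 and 1.52 CPM at 2 h, and in shZNF598 they were 6.3 and 7.49 CPM at 0 h and 1.3 and 1.45 CPM at 2 h. The 0 h and 2 h libraries were thus far apart in both lines. The log2 change was -2.82 in shControl (SE 0.17, edgeR, adjusted p = 1.87e-10), the lowest of all 10725 protein-coding genes, and -2.33 in shZNF598 (SE 0.18, adjusted p = 5.6e-09), the fifth lowest. Most of the fall came before 2 h, and the lowest mean, at 4 h, was 11.4% of the 0 h level in shControl and 16.6% in shZNF598.

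**Figure D1:**
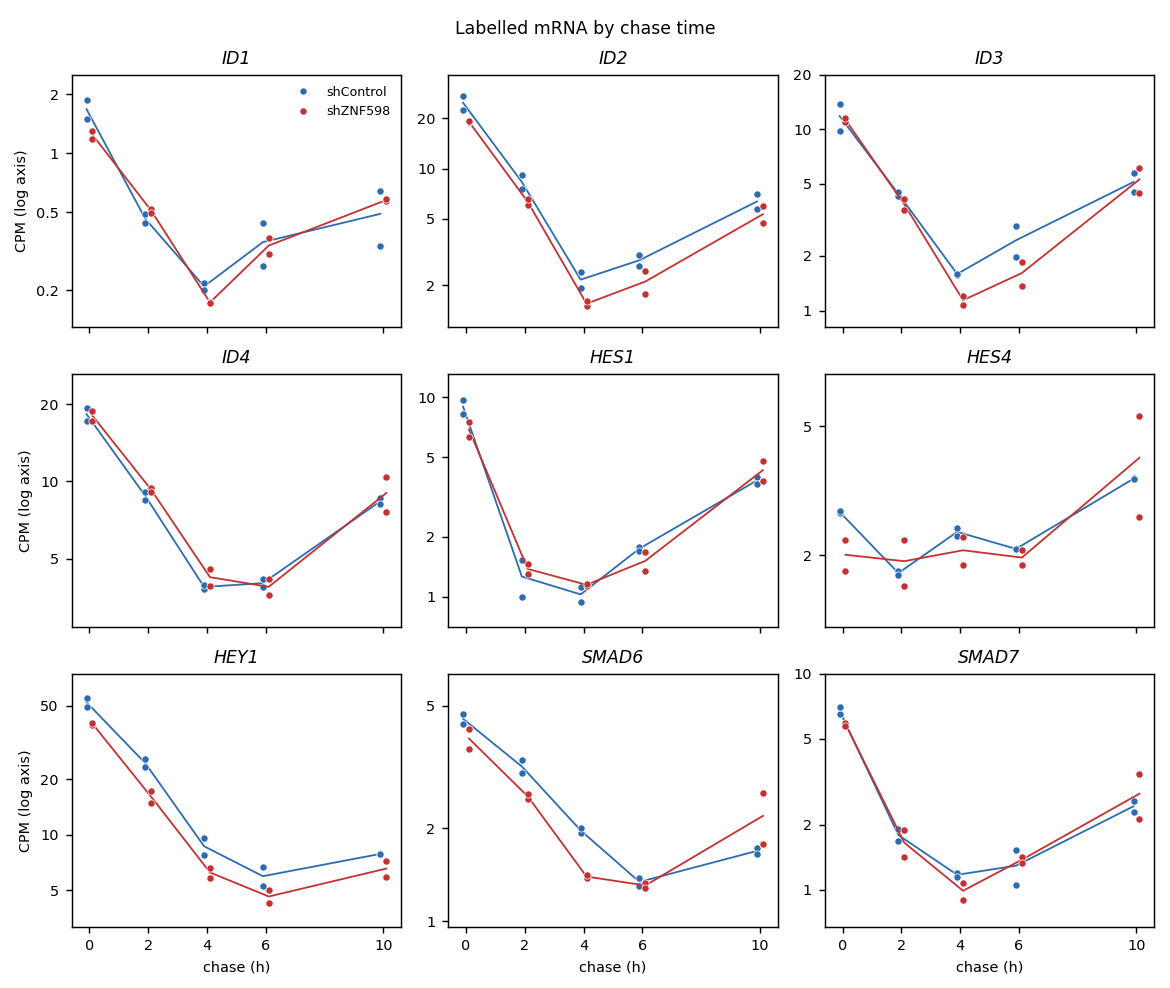
Level of each gene by chase time, in CPM after TMM scaling on a log axis whose range differs between panels. Points are libraries (2 per shRNA and time, 0 to 10 h) and lines join the means. ID1, ID2, ID3, HES1 and SMAD7 were lowest at 4 h in both lines, HEY1 and SMAD6 at 6 h, and HES4 stayed between 1.6 and 5.37 CPM throughout.

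Both inhibitory SMADs fell, SMAD7 more steeply than SMAD6, a difference between genes that was not tested. SMAD7 had 6.49 and 7 CPM at 0 h and 1.68 and 1.91 CPM at 2 h in shControl, and 5.95 and 5.76 CPM at 0 h and 1.89 and 1.42 CPM at 2 h in shZNF598. Its log2 change was -1.91 in shControl (SE 0.18, edgeR, adjusted p = 1.04e-07) and -1.83 in shZNF598 (SE 0.18, adjusted p = 3.44e-07). SMAD6, which acts mainly on BMP receptors, went from 4.37 and 4.7 to 3.02 and 3.33 CPM in shControl and from 3.62 and 4.21 to 2.5 and 2.58 CPM in shZNF598. The groups did not overlap, though the share of all genes without overlap was not taken. The log2 changes of SMAD6 were only -0.51 (SE 0.14, edgeR, adjusted p = 0.0411) and -0.62 (SE 0.15, adjusted p = 0.0133). The shControl call for SMAD6 was lost by DESeq2's Wald test and in 13 of the 20 fits that left out 1 library, and its change then lay between -0.59 and -0.44. SMAD6 reached its lowest level at 6 h, at 29.5% of the 0 h level in shControl and 33.3% in shZNF598.

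Among the ID genes, ID2 and ID3 fell more steeply than ID4. ID2 had 22.5 and 27.1 CPM at 0 h and 7.52 and 9.12 CPM at 2 h in shControl, and 18.9 and 19.3 CPM at 0 h and 6.05 and 6.6 CPM at 2 h in shZNF598. That is a log2 change of -1.58 (SE 0.15, edgeR, adjusted p = 1.04e-07) and -1.59 (SE 0.15, adjusted p = 1.32e-07). ID3 changed by -1.43 (SE 0.18) and -1.55 (SE 0.18), and ID4 by -1.06 (SE 0.13) and -0.96 (SE 0.13), on the log2 scale in shControl and shZNF598. The difference between ID genes was not tested. At 4 h, ID2 was down to 8.73% of its 0 h level in shControl and 8.15% in shZNF598, ID3 to 13.5% and 10.1%, and ID4 to 21.2% and 23.4%.

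ID1, below the filter, was counted 107 and 141 times in the shControl 0 h libraries and 35 and 43 times at 2 h, and 81 and 74 times in the shZNF598 0 h libraries and 39 and 40 times at 2 h. At 4 h it was down to 13 to 17 counts in each of the 4 libraries. In a fit with no filter its log2 change over the first 2 h was -1.78 in shControl (SE 0.25, edgeR, adjusted p = 1.88e-10) and -1.23 in shZNF598 (SE 0.26, adjusted p = 0.000168). That fit estimated the spread over another set of transcripts, so these p-values cannot be compared with those of the other members. They also rest on few counts.

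The HES-related members HEY1 and HES4 followed other courses than HES1. HEY1, the most abundant member, went from 49.3 and 55.1 CPM to 23.2 and 25.6 CPM in shControl and from 39.5 and 40.4 CPM to 14.8 and 17.3 CPM in shZNF598 within 2 h. Its log2 changes were -1.1 (SE 0.13, edgeR, adjusted p = 3.28e-06) and -1.32 (SE 0.13, adjusted p = 3.15e-07). It went on falling to 6 h, where it was at 11.4% of the 0 h level in shControl and 11.6% in shZNF598. HES4 had 2.7 and 2.74 CPM at 0 h and 1.78 and 1.74 CPM at 2 h in shControl, and 2.22 and 1.79 CPM at 0 h and 2.23 and 1.6 CPM at 2 h in shZNF598. The shControl groups did not overlap and the shZNF598 groups did, and the share of all genes without overlap was not taken. Neither log2 change passed the test, at -0.63 (SE 0.22, edgeR, adjusted p = 0.116) and -0.07 (SE 0.23, adjusted p = 0.922), although the shControl change passed in the fit with no filter and in 2 fits without 1 library of shZNF598 at 10 h.

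**Figure D2:**
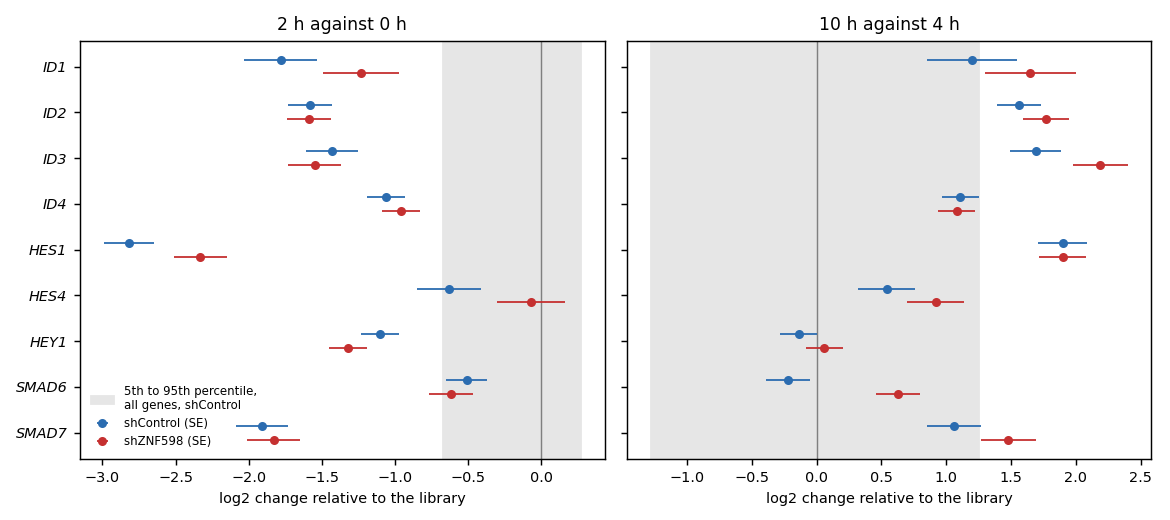
Log2 change with its SE for each gene, at 2 h against 0 h on the left and at 10 h against 4 h on the right, in shControl and shZNF598. The grey band spans the 5th to 95th percentile of the 10725 protein-coding genes in shControl, and the values of ID1 come from the fit with no filter. In shControl all genes but HES4 and SMAD6 lie left of the band in the first 2 h, and ID2, ID3 and HES1 lie right of it in the late part.

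Apparent half-lives followed the rule of the study's methods, without its spike-in factor: the log2 fold change against 0 h was regressed on time within each of 4 windows that end at 4, 6, 10 or 24 h, the best-fitting window (by R²) gave the half-life, and a value was taken as reliable with an R² above 0.9 and a half-life between 0 and 24 h. It was reliable in both lines for 6 of the 8 genes. Of the 10725 protein-coding genes, 37.0% had a reliable value in shControl and 35.9% in shZNF598, and the share reliable in both was not taken. The shControl and shZNF598 values were 1.15 and 1.12 h for ID2, 1.4 and 1.23 h for ID3, 1.81 and 1.95 h for ID4, 1.56 and 1.52 h for HEY1, 1.6 and 1.59 h for SMAD7, and 3.43 and 2.78 h for SMAD6. All 6 lay below the median of the genes with a reliable value, which was 4.56 h over 3967 genes in shControl and 4.7 h over 3847 genes in shZNF598. With the libraries of 1 replicate number alone, these half-lives ran from 1.11 h for ID2 to 3.52 h for SMAD6, and the R² of SMAD7 fell to 0.891 in shControl replicate 1 and 0.859 in shZNF598 replicate 2. HES1, with nearly all of its fall before 2 h, had an R² of 0.819 and 0.816, and HES4 gave negative half-lives. The rule kept the 0-4 h window for all 6 genes except SMAD6 in shControl (0-6 h), and with a fixed window of 0-10 h none of the 8 was reliable in both lines.

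For most members the decline relative to the bulk did not continue. From 4 h to 10 h, 6 of the 8 members rose relative to the bulk in shControl and 7 in shZNF598 (edgeR, adjusted p below 0.05), where 30.9% and 30.5% of all transcripts and 26.6% and 27.1% of protein-coding genes were called higher. HES1 rose from 0.939 and 1.11 CPM to 3.96 and 3.69 CPM in shControl and from 1.13 and 1.16 CPM to 3.8 and 4.81 CPM in shZNF598. Its log2 change was 1.9 in both lines (SE 0.19 and 0.18, adjusted p = 5.73e-09 and 5.14e-09). ID3 rose by 1.69 log2 in shControl (SE 0.2) and 2.19 in shZNF598 (SE 0.21), ID2 by 1.56 (SE 0.17) and 1.77 (SE 0.18), ID4 by 1.11 (SE 0.14) and 1.08 (SE 0.14), and SMAD7 by 1.06 (SE 0.21) and 1.48 (SE 0.21). The 4 h and 10 h libraries of these 5 genes did not overlap in either line, but the share of all genes without overlap was not taken. HEY1 was not called in either line, with 7.77 and 9.55 CPM at 4 h and 7.91 and 7.84 CPM at 10 h in shControl, a log2 change of -0.14 (SE 0.14, adjusted p = 0.398), and 0.06 (SE 0.14, adjusted p = 0.716) in shZNF598.

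SMAD6 had 1.93 and 2.01 CPM at 4 h and 1.73 and 1.65 CPM at 10 h in shControl, and 1.38 and 1.41 CPM at 4 h and 1.78 and 2.61 CPM at 10 h in shZNF598. The log2 change was -0.22 in shControl (SE 0.17, edgeR, adjusted p = 0.257) and 0.63 in shZNF598 (SE 0.17, adjusted p = 0.00274), and their difference of 0.85 (SE 0.24) had an unadjusted p of 0.00167 and did not pass over all transcripts (adjusted p = 0.353). The shZNF598 change was 0.35 and no longer called without replicate 2 of shZNF598 at 10 h. HES4 rose by 0.54 (SE 0.22, edgeR, adjusted p = 0.0307) in shControl and by 0.92 (SE 0.22, adjusted p = 0.000732) in shZNF598. The second of these was 0.35 and no longer called without that same library, in which HES4 had 5.37 CPM against 2.63 CPM in replicate 1, and the first was lost without any 1 of the 4 shControl libraries of 4 and 10 h.

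The size of the late rise depended on the scaling. Scaling by total counts alone lowered all genes by 0.57 log2 in shControl and 0.52 in shZNF598 between 4 and 10 h. It then called 5 members higher and 2 lower in shControl, and 5 higher and 1 lower in shZNF598, where of all transcripts 14.0% and 13.5% were called higher and 62.4% and 58.7% lower. ID2, ID3, ID4, HES1 and SMAD7 stayed higher in both lines, with HES1 at 1.33 and 1.39 and ID4 at 0.54 and 0.57. HEY1 became lower, at -0.71 in shControl and -0.45 in shZNF598, as did SMAD6 in shControl at -0.79, and HES4 in shControl was at -0.03 (adjusted p = 0.914).

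**Figure D3:**
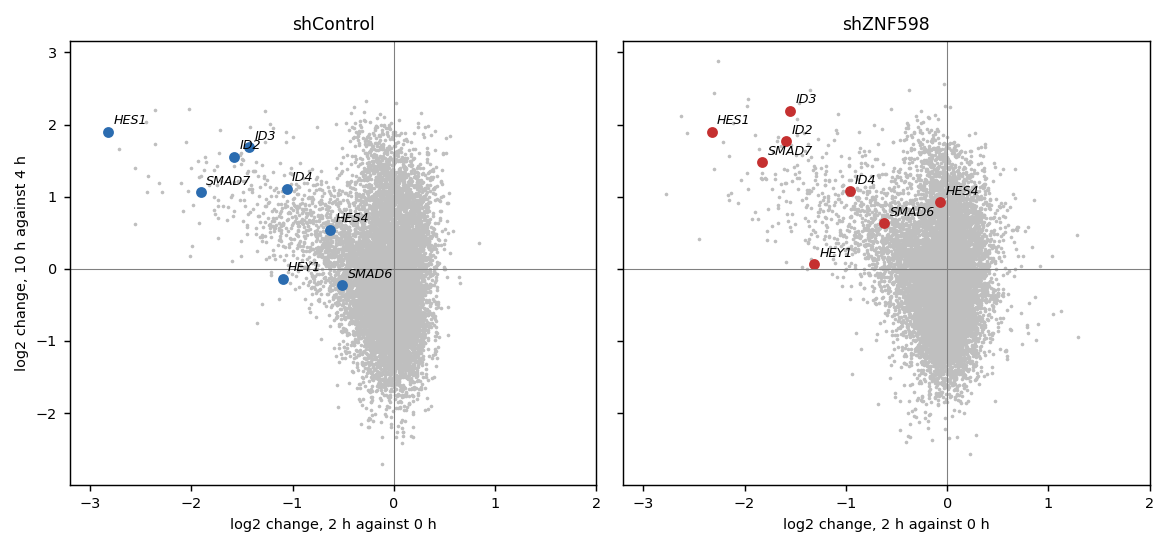
Log2 change from 0 to 2 h (horizontal) against the log2 change from 4 to 10 h (vertical) for 10725 protein-coding genes (grey) and the 8 tested genes (coloured and named), in shControl and shZNF598. Genes that fell furthest in the first 2 h lie above 0 on the vertical axis, and HEY1 lies near 0.

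Other genes that were lost as early lay mostly above 0 in the late phase as well. In shControl, 18 protein-coding genes had a change below -2 in the first 2 h, and all 18 had a late change above 0, with a median of 1.34. The median was 1.07 over the 44 genes between -2 and -1.5 and 0.72 over the 166 genes between -1.5 and -1, and 94% of the latter were above 0. Among the 9799 genes between -0.5 and 0.5, 38.4% were above 0, with a median of -0.24. In shZNF598 the medians were 1.47, 1.2 and 0.88 over 16, 52 and 152 genes, and -0.17 over the 9736 genes near 0. These bins include the members and share the 20 libraries, and no test was run on them. Beside these, HEY1, in the bin from -1.5 to -1, was below the bin's lower quartile of 0.48 in both lines.

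At 24 h, with 1 library per shRNA and no test, the levels of all 9 genes lay above the mean at 10 h, by 1.06-fold (HES4) to 2.91-fold (ID1) in shControl and by 1.09-fold (SMAD7) to 2.71-fold (ID2) in shZNF598. The share of all genes above their 10 h mean was not taken, so this rise cannot be called particular to the members. ZNF598, which is not a member, also lay above it, by 1.04-fold in shControl and 2.53-fold in shZNF598. For SMAD7 in shZNF598 the 24 h value of 2.92 CPM lay between the 10 h libraries. HES1 was at 70.3% of its 0 h level in shControl and 89.5% in shZNF598, ID2 at 58.1% and 73.8%, SMAD7 at 51.8% and 50.5%, and HEY1 at 36.6% and 38.1%. HES4 was at 133% in shControl, with 64 counts (exact Poisson 95% interval 49.3 to 81.7, counting error only), and at 394% in shZNF598, with 278 counts (246 to 313). These libraries were shallower, at 21220829 counts for shControl and 40157613 for shZNF598.

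The slope over the whole 0 to 10 h takes in both phases and is 0 for a transcript lost as fast as the bulk. In shControl it was lower than 0 for 3 of the 8 members, HEY1 at -0.279 log2 per hour (SE 0.057, edgeR, adjusted p = 0.000162), ID2 at -0.191 (SE 0.079, adjusted p = 0.0349) and SMAD6 at -0.156 (SE 0.039, adjusted p = 0.00116). Over all transcripts 40.8% were called lower, and over protein-coding genes 52.5%, so 3 of 8 does not set the members apart. In shZNF598 the same 3 were lower, HEY1 at -0.264 (SE 0.056), ID2 at -0.182 (SE 0.08, adjusted p = 0.0476) and SMAD6 at -0.091 (SE 0.037), and HES4 was higher at 0.097 (SE 0.029, adjusted p = 0.00535), where 38.5% of transcripts and 49.3% of protein-coding genes were called lower and 25.3% of protein-coding genes higher. HES1 was at -0.095 (SE 0.08) and -0.044 (SE 0.081) and passed in neither line. Restricted to 0-4 h, the slope was called lower for 7 of the 8 in both lines, where 21.3% of transcripts in shControl and 20.5% in shZNF598 were called lower, and over 0-6 h for the same number, where 34.7% and 33.4% were. The HES4 call was lost, at 0.032, without replicate 2 of shZNF598 at 10 h. It was also lost over 0-4 h and with total counts alone, at 0.035 (edgeR, adjusted p = 0.224). Without 1 library, the ID2 call was lost in 9 of 20 fits in shZNF598 and in 4 in shControl (either library of 0 or 6 h), and the SMAD6 call in 4 in shZNF598 (either library of 0 or 6 h). DESeq2's Wald test called neither ID2 in either line nor SMAD6 in shZNF598, and with counts summed over the rows of a gene neither was called in either line.

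The libraries were made to compare mRNA half-lives between the lines, with mRNAs of C2H2 zinc finger proteins as the class of interest, to which none of the 9 genes belongs. For these genes no difference in decay passed the test. The slope differed between shZNF598 and shControl for 0 of the 8 (edgeR, adjusted p below 0.05, also 0 by DESeq2's Wald test), beside 0.116% of all transcripts. An unadjusted p below 0.05 was found for 0 of the 8 and for 4396 of the 79513 transcripts. The differences ran from 0.008 log2 per hour for ID3 and ID4 to 0.065 for SMAD6, and the 95% intervals were -0.219 to 0.237 for ID2, -0.142 to 0.173 for HEY1 and -0.047 to 0.176 for SMAD6. All 8 were above 0, and the sign turned for ID2, ID3, HEY1 and SMAD6 over 0-4 h. The change over the first 2 h differed for 0 of the 8, and for 0 (0.0%) of the 79513 transcripts, of which 1438 had an unadjusted p below 0.05. The largest of these differences were 0.56 for HES4 (SE 0.32, 95% interval -0.09 to 1.21) and 0.49 for HES1 (SE 0.25, 95% interval -0.02 to 1, unadjusted p = 0.0568), and the HES1 value lay at 0.23 and 0.83 without the one or the other shControl 2 h library, and the HES4 value at 0.3 and 0.78 without the one or the other shZNF598 2 h library. In the other tested row of HES1, a retained intron, the difference of the first 2 h was 0.06. The change from 4 to 10 h differed for 0 of the 8, beside 0.0868% of all transcripts at the same adjusted threshold. For 1 of the 8 (SMAD6, above) the unadjusted p was below 0.05, as it was for 5834 of the 79513 transcripts.

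The level averaged over the chase did differ for some members. This average takes in both the level at 0 h and the labelled RNA left at later times. Averaged over 0 to 10 h, HEY1, ID2 and ID3 were lower in shZNF598 and no member was higher (edgeR, adjusted p below 0.05). Of all transcripts 10.1% were called lower, and of protein-coding genes 12.1%. The HEY1 libraries of shZNF598 lay below those of shControl at each of the 5 times, with the 0 and 2 h values given above and, at 10 h, 7.91 and 7.84 CPM in shControl and 5.88 and 7.23 CPM in shZNF598. The share of all genes whose libraries separate in this way was not taken. The average log2 difference of HEY1 was -0.42 (SE 0.06, edgeR, adjusted p = 2.11e-05), or 1.34-fold lower. At 2 h alone the HEY1 difference was -0.61 (SE 0.13, adjusted p = 0.0197), the only call for a member at a single time, where 1.31% of protein-coding genes were called at 2 h, 2.28% at 4 h, 3.57% at 6 h and 4.02% at 10 h.

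ID2 was lower by -0.39 log2 on average (SE 0.07, edgeR, adjusted p = 0.000506). Its libraries did not overlap between the lines at 0, 2, 4 and 6 h, with 1.93 and 2.4 CPM in shControl and 1.5 and 1.61 CPM in shZNF598 at 4 h, and they overlapped at 10 h. The HEY1 average stayed between -0.45 and -0.38, and that of ID2 between -0.44 and -0.35, in the fits without 1 library. ID3 had an average difference of -0.25 (SE 0.09, adjusted p = 0.0402), and this call was lost in 14 of the 20 fits without 1 library. The ID3 libraries overlapped at 0 h and at 10 h and did not overlap at 4 h, where they had 1.58 and 1.6 CPM in shControl and 1.2 and 1.08 CPM in shZNF598. For ID2 and ID3 too, the share of all genes without overlap was not taken.

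The other members showed no difference past the threshold. The average was 0.05 for ID4 (95% interval -0.08 to 0.17), -0.03 for HES1 (-0.2 to 0.14), -0.07 for SMAD7 (-0.26 to 0.11), -0.09 for HES4 (-0.29 to 0.12) and -0.15 for SMAD6 (SE 0.07, edgeR, adjusted p = 0.161). ID1, in the fit with no filter, was at -0.06 (-0.34 to 0.22). The SMAD6 average passed the test without replicate 2 of shZNF598 at 10 h (-0.2, edgeR, adjusted p = 0.0382) and with counts summed over all its rows (-0.19, adjusted p = 0.0269).

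**Figure D4:**
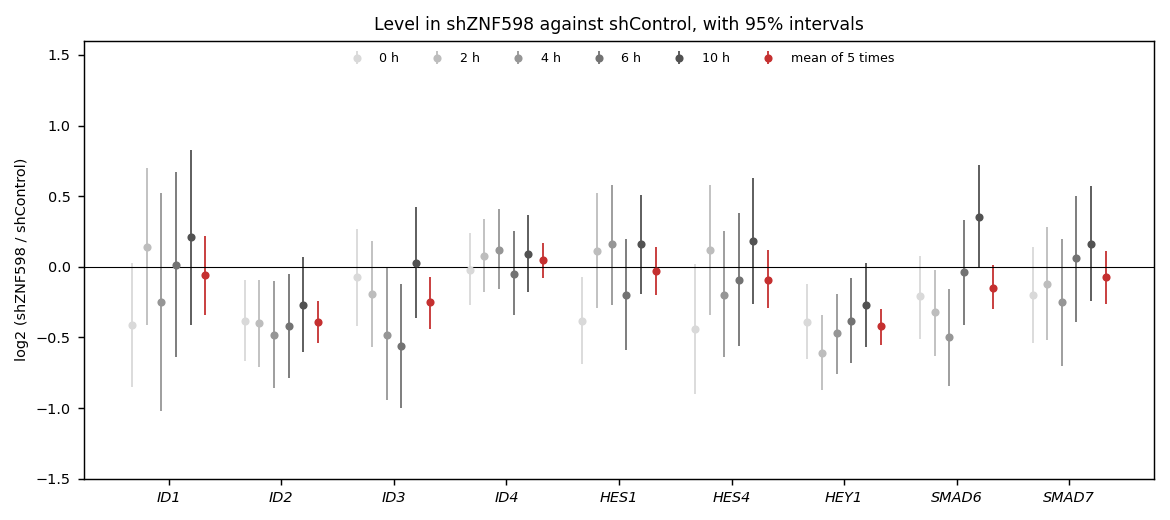
Log2 difference in level between shZNF598 and shControl with its 95% interval, at each chase time (grey, lighter for earlier times) and averaged over the 5 times (red). The averages of HEY1 (-0.42), ID2 (-0.39) and ID3 (-0.25) passed the test, and ID1 comes from the fit with no filter.

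At the end of labelling, before any chase, the differences of all 8 tested members were below 0 and none passed the test (edgeR, 0 of 8, also 0 by DESeq2's Wald test), where 0.407% of all transcripts and 0.69% of protein-coding genes were called. Their median was -0.29, beside 0.02 over all protein-coding genes. HEY1 (-0.39), ID2 (-0.38) and HES1 (-0.38) had an unadjusted edgeR p below 0.05, at 0.00568, 0.0135 and 0.0191. Of the 79513 transcripts tested, 8067 also had an unadjusted p below 0.05. Replicate 2 of shControl at 0 h was above replicate 1 for every member, and without it the differences of HEY1, ID2 and HES1 were -0.3, -0.24 and -0.26, and those of ID3 and ID4 were 0.2 and 0.07. For HES1 the difference was 0.11 at 2 h and 0.16 at 4 h, also short of the threshold.

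The members moved together across the 20 libraries to different degrees, as a description, since all points share the same chase times and scaling. The Pearson r of log2 CPM was 0.971 between ID2 and ID4, 0.968 between ID2 and ID3, 0.956 between HEY1 and SMAD6, and 0.932 between HES1 and SMAD7. HES1 and HEY1, both Notch-responsive repressors, had an r of only 0.559. HES4 stood apart from all others, from -0.144 with HEY1 to 0.47 with HES1. Among the 10725 protein-coding genes, the patterns most like that of ID4 were TRIM11 (0.992) and ZNF747 (0.991), those most like HEY1 were ZNF805 (0.989) and GALNT4 (0.986), and those most like SMAD7 were BAMBI (0.981), a decoy receptor for TGF-β family ligands, and ZNF304 (0.98). As many as 168 genes had an r above 0.95 with ID4, 186 with HEY1 and 28 with SMAD7.

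Other transcript rows of a gene share its reads and mostly moved with the member's row. Over all tested rows of a gene, the change in the first 2 h in shControl ran from -1.63 to -1.56 for ID2 (4 rows), from -1.26 to -1.1 for HEY1 (7 rows) and from -2.82 to -2.29 for HES1 (2 rows). For HES1 the difference of this change between the lines was 0.49 in the member's row and 0.06 in the other. SMAD6 was another exception. Its row with the most counts, ENST00000612349.1, has no annotated coding sequence and changed by -0.89 in shControl and -0.83 in shZNF598 in the first 2 h, and by 1.09 in both lines from 4 to 10 h (edgeR, adjusted p = 8.19e-08 and 1.36e-07), where the protein-coding row was at -0.22 and 0.63. Summed over all its rows, SMAD6 was at 0.43 in shControl from 4 to 10 h (adjusted p = 0.0085).

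The rest of the TGF-β/BMP and Notch pathways was examined through 98 genes in 10 lists, of which 63 passed the filter. In the first 2 h, 7 of the 63 fell and 1 rose in shControl (TGFBR1, at 0.42), and 4 fell in shZNF598, which is 12.7% and 6.35% called in either direction beside 7.9% and 8.6% of protein-coding genes. The 4 that fell in both lines, of which MSX1 and MSX2 are named after their values were seen, were SNAI2, MSX2 and MSX1, 3 transcription factor genes in the list of other TGF-β/BMP targets, which were the only tested members of that list, and BAMBI. SNAI2 changed by -2.56 in shControl (SE 0.19, edgeR, adjusted p = 3.04e-09) and -1.9 in shZNF598 (SE 0.2, adjusted p = 6.03e-07), and BAMBI by -2.29 (SE 0.2, adjusted p = 3.02e-08) and -2.21 (SE 0.21, adjusted p = 1.23e-07). MSX2 was at -1.11 and -1.24 and MSX1 at -0.63 and -0.71. The median was -0.31 over the 4 ligands tested in shControl, -0.04 over the 9 receptors, -0.08 over the 6 signalling SMADs, -0.06 over the 15 Notch core genes and 0.05 over the 3 E proteins.

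**Figure D5:**
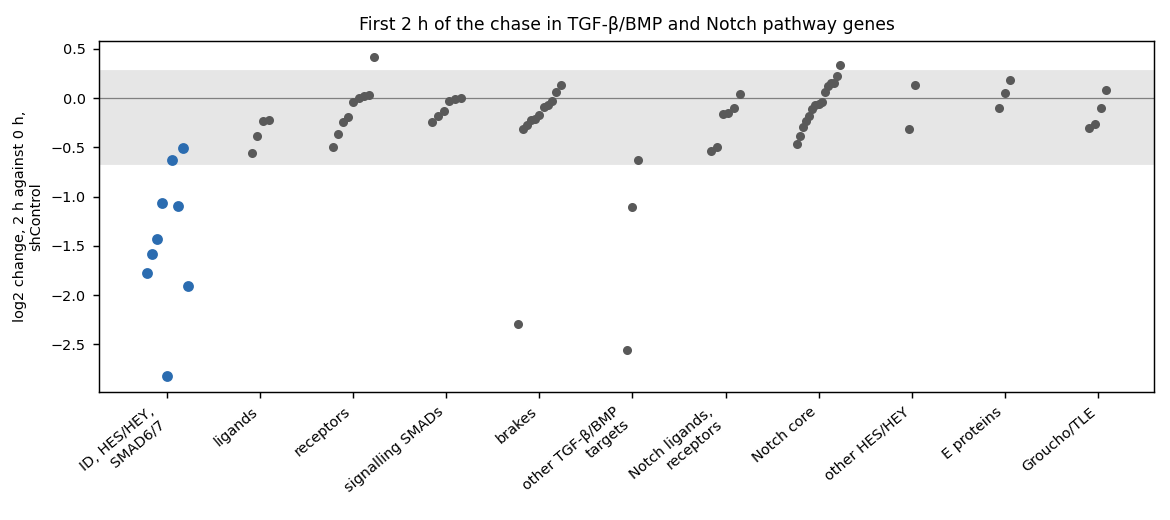
Log2 change from 0 to 2 h in shControl for the 9 genes (blue, ID1 from the fit with no filter) and for the tested genes of 10 pathway lists (grey points, 1 per gene). The grey band spans the 5th to 95th percentile of 10725 protein-coding genes. Below it lie 7 of the 9 genes, BAMBI among the brakes, and SNAI2 and MSX2 among the other targets.

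In level averaged over 0 to 10 h, 20 of the 63 pathway genes differed between the lines, 12 higher and 8 lower in shZNF598 (31.7%, beside 27.7% of protein-coding genes). TGFBR3, a coreceptor for TGF-β, was lowest at -1.27 log2 (SE 0.06, edgeR, adjusted p = 1.11e-13), followed by the ligand BMP7 at -0.52 (SE 0.05, adjusted p = 6.61e-08). SNAI2 was at -0.5, NOTCH3 at -0.4, HES6 at -0.32, BMPR2 at -0.29, the Notch ligand JAG1 at -0.27 and the Groucho corepressor TLE4 at -0.27. Higher genes included SMAD1 at 0.32 (SE 0.08, adjusted p = 0.00558), TGIF2 at 0.31, MAML1, a Notch coactivator, at 0.3, SMURF1 at 0.28, TLE3 at 0.25, ACVR2B at 0.23, APH1A and BMPR1A at 0.18 each, SMAD4 at 0.17 and the ubiquitin ligase ITCH at 0.15. Of these, TGFBR3 and BMP7 were also lower at 0 h (-0.8 and -0.58, adjusted p = 0.00257 and 0.0164). No gene of the lists differed in slope, in the first 2 h or from 4 to 10 h (edgeR, 0 of 63 in each). The E proteins, which the ID proteins bind, were at 0.08 for TCF3 and 0.04 for TCF4 in the average level, and neither passed.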

How the data were processed

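BRIC-Seq libraries of HEK293T cells were grouped by the shRNA, chase time and replicate number in their labels. Per the study's methods, the authors trimmed reads with fastp, removed noncoding RNA, mapped the remainder to hg38 (GENCODE 32), keeping reads with up to 1 mismatch at 1 locus, and counted reads per transcript with featureCounts. The submitters' processing notes name CASAVA 1.8 and STAR 2.7.0a. The deposited values are raw counts per transcript, 1 file per library, beside each transcript's length in codons. The spike-in counts that the study used were not used here.

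Gene names came from GENCODE 44, also on GRCh38. Among the 227264 identifiers, the version matched too for 92.2%, and 98.4% matched when it was ignored, and those without a match held 2.2% of the counts. Length agreed to within 1 codon for all 209601 version-matched transcripts. The SMAD7 and HES4 rows carry older versions, so their sequence features are those of the current version, 3341 and 885 nt long against 4428 and 900 nt in the files. Motifs and lengths come from GENCODE 44 transcripts. Protein sequences were not analysed here.

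Those averaging 1 CPM or more in the 20 libraries from 0 to 10 h (79513) were kept and scaled by TMM. In edgeR 4.0.16 (limma 3.58.1, R 4.3.3), models with 1 mean per group, or with shRNA, hours and their product, were tested by quasi-likelihood, with Benjamini-Hochberg adjustment over all transcripts tested. Half-lives used DESeq2 1.42.0. The functions were tested on simulated counts. No pair of replicates agreed within sampling noise, the ratio of chi-square to its degrees of freedom being 2.31 to 18.8. Intervals on counts are exact Poisson intervals at 95% and cover counting error only.

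The members, lists and tests were chosen with earlier results of these data known, and the TGTANATA search and the bins of the first 2 h after these values were seen. Genes named from the lists were those called at 0 h, in the average level, in the slope difference or in the difference of the 0-2 h change, up to the 4 smallest p per list, else the gene with the highest mean count, and the steepest slope in shControl. BMP8B, TGFBR2, LEMD3 and HEYL came under the last part and had no call between the lines. ACVR1B (0.17), higher in the average level, fell outside the rule. A further gene of the lists is not reported here. For the member of each family with the highest mean count over the 20 libraries (ID4, HEY1, SMAD7), the 2 genes with the highest r were named. Alternatives covered scaling, filters, the test, rows, left-out libraries, the chase window and half-life settings.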

Additional observations from a re-analysis of the deposited data

Results flagged for a closer look

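The ZNF598 transcript itself changed in opposite directions late in the chase in the 2 lines, and this difference passed the test. From 4 to 10 h its log2 change relative to the bulk was -0.37 in shControl and 1.16 in shZNF598, a difference of 1.52 (SE 0.3, edgeR quasi-likelihood test, adjusted p = 0.0453). It rests on 34 to 53 raw counts per shZNF598 library at these times, 40 and 34 at 4 h and 53 and 43 at 10 h. None of the 8 tested ID, HES/HEY and SMAD genes had such a difference past the threshold.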

How the results depend on the processing

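Counts of members called kept within 1.5 times of the value reported in all settings but these. With transcripts of at least 5 CPM alone, which leaves fewer members to test, 4 were called in each line in the first 2 h and 3 in each line from 4 to 10 h. The slope in shControl was called for 6 by total counts, 1 with counts summed over all rows of a gene, 7 over 0-4 h and over 0-6 h, and 0 over 0-24 h, and for 2 to 5 without 1 library. The slope in shZNF598 was called for 2 by DESeq2's Wald test, with DESeq2 size factors, with at least 5 CPM and with summed counts, for 7 over 0-4 h and 0-6 h and for 1 over 0-24 h, and for 2 to 4 without 1 library. Except for the 0-4 h and 0-6 h windows, given above, the share of all transcripts called was not taken in these settings. These counts therefore cannot be called particular to the members. Between 0 and 10 h, total counts alone lowered all genes by 0.65 log2 in shControl and 0.58 in shZNF598. Reliable half-lives in both lines fell to 0 with a fixed window of 0-10 h.

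Some values changed sign, and except where the window itself differs the cause was not tested. Slopes in shControl (log2 per hour) were, over 2-10 h, 0.055 for ID3, 0.01 for ID4, 0.22 for HES1 (edgeR, adjusted p = 6e-05) and 0.069 for SMAD7, over 0-24 h 0.003 for ID3 and 0.005 for HES1, and for HES4 -0.021 by total counts, -0.062 over 0-4 h and -0.041 over 0-6 h. In shZNF598 they were, over 2-10 h, 0.085 for ID3, 0.008 for ID4, 0.221 for HES1 (adjusted p = 5.47e-05) and 0.112 for SMAD7 (adjusted p = 0.0386), over 0-24 h 0.02 for ID3, 0.003 for ID4, 0.024 for HES1 and 0.001 for SMAD6, and over 0-6 h -0.0 for HES4. Slope differences were, over 0-4 h, -0.014 for ID2, -0.088 for ID3, -0.014 for HEY1 and -0.062 for SMAD6, over 0-6 h -0.008 for ID2 and -0.088 for ID3, and over 2-10 h -0.002 for ID4. The level of ID4 at 0 h was 0.0 with no filter. The difference of the first 2 h was 0.0 for ID2 by total counts and -0.13 for SMAD7 with summed counts. From 4 to 10 h, HES4 was at -0.03 by total counts and SMAD6 at 0.43 with summed counts in shControl, HEY1 in shZNF598 was at -0.01 with no filter, -0.45 by total counts and -0.04 with at least 5 CPM, and by total counts the differences between the lines were 0.02 for ID4 and 0.05 for HES1.

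Without 1 library at a time, signs also turned for small values: at 0 h ID3 (-0.31 to 0.2) and ID4 (-0.11 to 0.07), in the average level HES1 (-0.08 to 0.04) and HES4 (-0.2 to 0.01), in the first 2 h HES4 in shZNF598 (-0.33 to 0.16), in the difference of the first 2 h ID2 (-0.16 to 0.13), ID3 (-0.39 to 0.11), SMAD6 (-0.22 to 0.0) and SMAD7 (-0.13 to 0.28), from 4 to 10 h HEY1 (-0.28 to 0.02 in shControl, -0.08 to 0.21 in shZNF598), and in its difference ID4 (-0.26 to 0.18), HES1 (-0.17 to 0.17) and HES4 (-0.19 to 0.84). Slopes turned for HES1 in shZNF598 (-0.108 to 0.023), and slope differences for ID2 (-0.062 to 0.079), ID3 (-0.069 to 0.075), ID4 (-0.055 to 0.055), HES1 (-0.018 to 0.118), HES4 (-0.015 to 0.071), HEY1 (-0.041 to 0.058) and SMAD7 (-0.038 to 0.099).

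The correlation of the deviations of same-numbered libraries was over 0.1 in 12 of the 45 pairs of groups (range -0.306 to 0.429), and in 3 of the 5 pairs of the 2 lines at one chase time (-0.197 to 0.325). It was not over 0.1 in every pair, so the number is not taken as a pairing. With a replicate block, 3 members were called in the slope in shZNF598 in place of 4, since ID2 was at -0.182 with an adjusted p of 0.0543, and the other counts of members called were the same. Among the results for single genes, 2312 alternatives kept direction and side of the threshold, 79 lost a call, 34 gained one and 88 changed sign. Depth limits ID1, at 13 to 17 counts per library at 4 h, and all values at 24 h rest on 1 library per line.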
